A study of Mus musculus with 9 samples.

Results

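The myeloid C-type lectin receptors described here are 8 genes, Clec4d, Clec4e, Clec4n, Clec7a, Clec5a, Clec4a2, Clec4a3 and Clec12a, chosen by name from the 17730 genes of the deposited expression table. All 8 had an entry. RNA was sequenced from primary wild-type astrocytes of newborn (postnatal day 0) C57BL/6 mice that had received conditioned medium of microglia stimulated with lipopolysaccharide (LPS-MCM, 3 libraries) or with hemin, a breakdown product of hemoglobin (Hemin-MCM, 3 libraries). The astrocytes themselves carried no genetic change, all groups received microglial medium, and doses, exposure times and any step to remove other cells from the cultures are not stated. The third group, medium of resting microglia, was not analysed here because the remaining value columns carry names that match no sample title. A difference can therefore come from a change in either group, and higher or lower always means LPS-MCM relative to Hemin-MCM. The libraries of a group are labelled as replicates but are tied to no separate animals or cultures, so the p-values cover only the spread among these libraries, which may be technical.

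C-type lectin receptors are cell-surface proteins, found mainly on macrophages, microglia, dendritic cells and neutrophils, that bind sugars and glycolipids of fungi and mycobacteria and products of dying cells. The activating receptors signal through an immunoreceptor tyrosine-based activation motif (ITAM), which is in a partner chain for most of them and in the receptor's own tail for Dectin-1, and the motif recruits the kinase SYK. SYK then acts through the adaptor CARD9 with BCL10 and MALT1 to activate NF-kB, while inhibitory family members carry an inhibitory motif (ITIM) that recruits phosphatases. The receptors are little known from astrocytes, and primary astrocyte cultures of newborn brain commonly hold some microglia.

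Values are FPKM, fragment counts divided by transcript length and by the mapped fragments of the library. A comparison between genes rests on the transcript lengths used, which are not stated. Library totals, recovered from the steps in the FPKM values, were 34281901 to 37758924 fragments, and libraries of 1 group had higher correlations across genes (0.994 to 0.997) than libraries of different groups (0.981 to 0.985). Of 9 astrocyte markers, all tested, 5 were lower in LPS-MCM, 1 was higher (Slc1a2, 54.8 ± 1.24 against 42.0 ± 1.67 FPKM) and 3 did not pass. All were above 0, among them Gfap (456.4 ± 23.1 FPKM with LPS-MCM against 676.2 ± 28.6, SD, n = 3 each) and Aldh1l1 (85.7 ± 7.85 against 101.9 ± 3.53). The microglia and macrophage markers were present too: all 22 of that list passed the filter and none was at 0. Their summed level was 2268 to 2584 FPKM with LPS-MCM against 4385 to 4718 FPKM with Hemin-MCM. Most of that sum came from Lyz2 alone (1540 ± 106 against 3303 ± 147 FPKM). By limma 16 of the 22 markers had lower levels with LPS-MCM and Fcer1g a higher one (median log2 difference -0.89, against -0.04 over all genes tested). P2ry12 and Tmem119 reached the filter only through Hemin-MCM. The 5 that did not pass were Adgre1 (123.5 ± 15.7 against 127.4 ± 7.04 FPKM), Itgam (98.9 ± 5.07 against 108.2 ± 1.41 FPKM), Ptprc, Spi1 and Cd53. In these bulk samples fewer cells of a type and less RNA per cell cannot be told apart, and the part of this shift in the receptor results was not tested.

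The 7 members with an entry in RefSeq's promoter table (build GRCm38.p6) are all on chromosome 6, and Clec4n, also on chromosome 6, is named only. The 250 bases before the start of transcription are shown for 4 of them: Clec4e, Clec5a and Clec7a, the 3 with the largest differences, and Clec4d, the most abundant member. The windows of Clec12a and Clec4a2, both higher in LPS-MCM, are not shown. Those shown let a reader compare genes higher in LPS-MCM (Clec4e and, less firmly, Clec4d) with genes lower (Clec5a, Clec7a). Each is written 5′ to 3′ along the gene, in lower case, with capitals at GAGGAA (the core bound by PU.1, a transcription factor of the myeloid lineage) and at TTGCNNAA (a core bound by C/EBP factors), both searched on both strands. No match overlaps another.
Clec4e, chr6:123289872-123290121, minus strand: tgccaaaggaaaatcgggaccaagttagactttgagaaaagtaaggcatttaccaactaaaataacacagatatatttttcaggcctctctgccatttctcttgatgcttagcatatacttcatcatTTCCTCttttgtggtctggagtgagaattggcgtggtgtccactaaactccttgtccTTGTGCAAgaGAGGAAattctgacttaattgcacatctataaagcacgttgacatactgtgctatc
Clec4d, chr6:123261857-123262106, plus strand: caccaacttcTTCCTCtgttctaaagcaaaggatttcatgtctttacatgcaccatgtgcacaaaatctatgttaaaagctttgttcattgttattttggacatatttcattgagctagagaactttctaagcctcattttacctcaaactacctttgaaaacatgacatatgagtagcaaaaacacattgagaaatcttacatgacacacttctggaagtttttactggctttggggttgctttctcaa
Clec5a, chr6:40585806-40586055, minus strand: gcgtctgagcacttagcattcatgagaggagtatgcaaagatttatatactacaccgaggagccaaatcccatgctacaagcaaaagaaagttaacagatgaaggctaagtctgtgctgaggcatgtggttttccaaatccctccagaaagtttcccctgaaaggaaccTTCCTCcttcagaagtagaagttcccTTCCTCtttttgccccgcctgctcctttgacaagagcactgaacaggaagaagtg
Clec7a, chr6:129472786-129473035, minus strand: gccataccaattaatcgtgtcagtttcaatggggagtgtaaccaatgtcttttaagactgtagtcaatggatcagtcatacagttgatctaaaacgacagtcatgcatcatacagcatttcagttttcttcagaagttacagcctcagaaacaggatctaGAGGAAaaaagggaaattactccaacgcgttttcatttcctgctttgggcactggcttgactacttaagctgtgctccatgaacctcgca
GAGGAA occurred in at least 1 window of 6 of the 7 members, Clec4a2 being the one without it, and in 7 of their 9 windows. Clec7a and Clec4a3 have more than 1 listed start, and the overlapping Clec7a windows hold the same match. The Clec12a window (129349994 to 129350243) lies inside that gene's interval, which begins at 129349783, so it does not precede the outermost start. Of all 32851 promoter windows of that length, 23.3% held GAGGAA, a share of windows and not of genes. TTGCNNAA occurred in the windows of Clec4e and Clec12a, in 2 of 9 windows against 9.56% of all windows, and in Clec4e it lies 66 bases before the start, between both GAGGAA matches at 123 and 56 bases. The AP-1 core TGANTCA was found in the Clec12a window alone among the members (6.75% of all windows), and the kappa-B pattern (GGG and CC with any 5 bases between them) in 0 of 9 (45.8% of all windows). A match is a description of these letters and not a binding site, and a missing match speaks only of this window. The shares over all windows were not matched for base composition, and the overlapping windows of Clec7a and of Clec4a3 are not separate observations. These shares therefore show no excess or lack of a pattern among the members.

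Of the 8 receptor genes, 4 were higher in LPS-MCM and 3 were lower. In 7 of 13 alternatives 3 were higher, since Clec4d lay at the threshold. All 8 had passed the filter of a mean of at least 1 FPKM. Over all 11688 genes tested, 20.5% were called in either direction by limma at an adjusted p of 0.05, 6.72% higher and 13.8% lower. The share of higher among the called genes of the whole table was 32.8%, and 46% after median-of-ratios scaling, while the counts of receptors were 4 higher and 3 lower under that scaling as well. Voom on recovered fragments called 24.0% of the genes and also gave 4 receptors higher and 3 lower. For 7 of the 8 receptors every library of one group lay above every library of the other, 4 with LPS-MCM above and 3 with LPS-MCM below. This held for 37.5% of all genes tested, 12.8% with LPS-MCM above and 24.7% with LPS-MCM below. The members' median log2 difference was 0.09, beside -0.04 over all genes tested. Clec4e had the largest positive difference and Clec5a the largest negative difference among them, so the members did not move as 1 block.

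**Figure D1:**
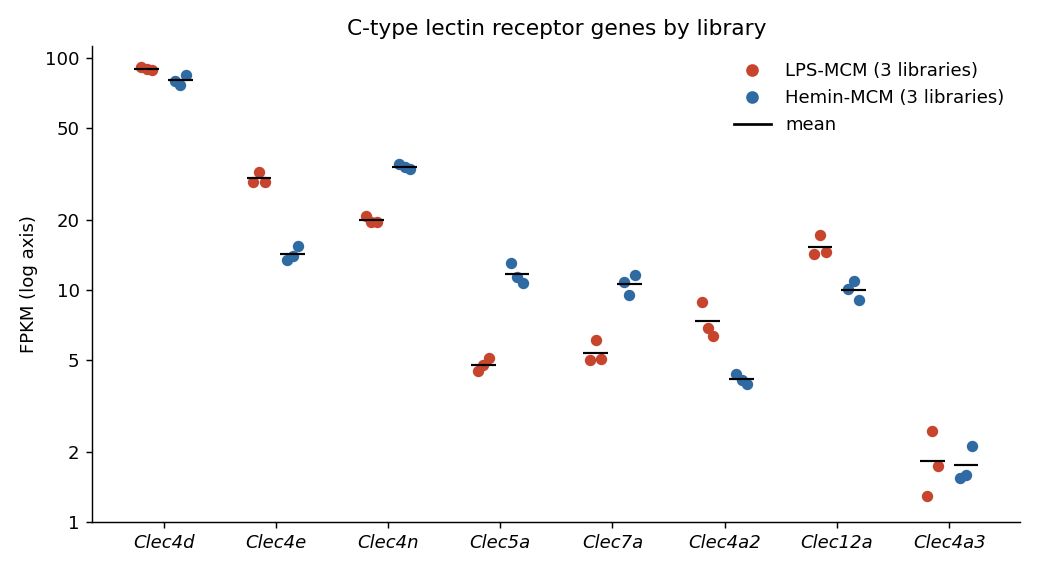
FPKM of the 8 receptor genes (log axis), with 1 point per library, 3 LPS-MCM and 3 Hemin-MCM libraries per gene and a bar at each group's mean. Clec4d stands highest in both groups, Clec4n and Clec4e change places between the groups, and the points of Clec4a3 overlap.

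Clec4e encodes Mincle, the receptor for the mycobacterial cord factor and for SAP130 of dying cells, which signals through the Fc receptor gamma chain encoded by Fcer1g. Clec4e (gene 56619, chromosome 6, 123281789 to 123289871) was at 29.3, 32.3 and 29.2 FPKM in the LPS-MCM libraries and at 13.4, 14.0 and 15.5 FPKM in the Hemin-MCM libraries. Every LPS-MCM library lay above every Hemin-MCM library, with 3145 to 3482 fragments per library against 1398 to 1775. The means were 30.3 ± 1.78 and 14.3 ± 1.06 FPKM (SD, n = 3 each), a ratio of 2.12. On the log2(FPKM + 1) scale the difference was 1.03 ± 0.07 (SE, limma adjusted p = 4.77e-06), and it stayed called in all 13 alternatives, between 0.99 and 1.09. Its protein target is not measured here, but the gene Sap130 was expressed at 5.22 ± 0.143 and 5.39 ± 0.134 FPKM and did not pass the test (-0.04 ± 0.06, 95% interval -0.17 to 0.10).

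Clec4d encodes MCL (also called Dectin-3), which pairs with Mincle and with the Fc receptor gamma chain. It was the most abundant receptor of the 8, at 91.1, 89.9 and 88.8 FPKM in LPS-MCM and 79.9, 76.3 and 84.9 FPKM in Hemin-MCM, and it made up 50.1 to 52.2% and 47.2 to 49.7% of the summed FPKM of the 8 receptors. The libraries did not overlap, although the groups are close (3622 to 4524 fragments per library). Clec4d (gene 17474, chromosome 6, 123262107 to 123275268) differed by 0.16 ± 0.05 with a limma adjusted p of 0.0495, just inside the threshold. The call was lost in 7 of 13 alternatives, over which the adjusted p ran from 0.0224 to 0.2003. Among them were the fits without the first (adjusted p = 0.135) or second LPS-MCM library (0.0945) and without the first (0.124) or second Hemin-MCM library (0.2003), and the difference was positive in all 13. With these alternatives the count of higher receptors is 3.

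Clec4n encodes Dectin-2, which binds mannans of fungi and also signals through the Fc receptor gamma chain. Clec4n (gene 56620, chromosome 6, 123229843 to 123247024) was at 20.9, 19.7 and 19.5 FPKM in LPS-MCM and at 34.8, 33.9 and 33.1 FPKM in Hemin-MCM. It thus went the other way from Clec4e, with no overlap and a spread of under 4% of the mean in both groups (3.65% and 2.496%). The means were 20.05 ± 0.731 and 33.9 ± 0.847 FPKM, 1.69 times as high in Hemin-MCM, and the log2 difference was -0.73 ± 0.05 (limma adjusted p = 7.57e-06). It was called in all 13 alternatives, between -0.76 and -0.69.

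Because both genes were read in the same library, the ratio of Clec4e to Clec4n does not depend on the library's scaling. It was 1.401 to 1.64 in the LPS-MCM libraries and 0.385 to 0.467 in the Hemin-MCM libraries. In FPKM, Clec4e thus exceeded Clec4n in every library of the first group and was below it in every library of the second. The shift of the ratio between the groups does not depend on transcript length. Which gene stands higher does, and the lengths used are not stated. Set against the most abundant member, the ratio of Clec4e to Clec4d was 0.321 to 0.360 and 0.168 to 0.183. The ratio of Clec4n to Clec4d was 0.219 to 0.229 with LPS-MCM against 0.390 to 0.444 with Hemin-MCM. None of these ranges overlaps between the groups, and they are given as a description, with no test. The ratios with Clec4n had to separate, since its libraries lay apart in the opposite direction to those of Clec4e and Clec4d. They restate the differences of the single genes.

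**Figure D2:**
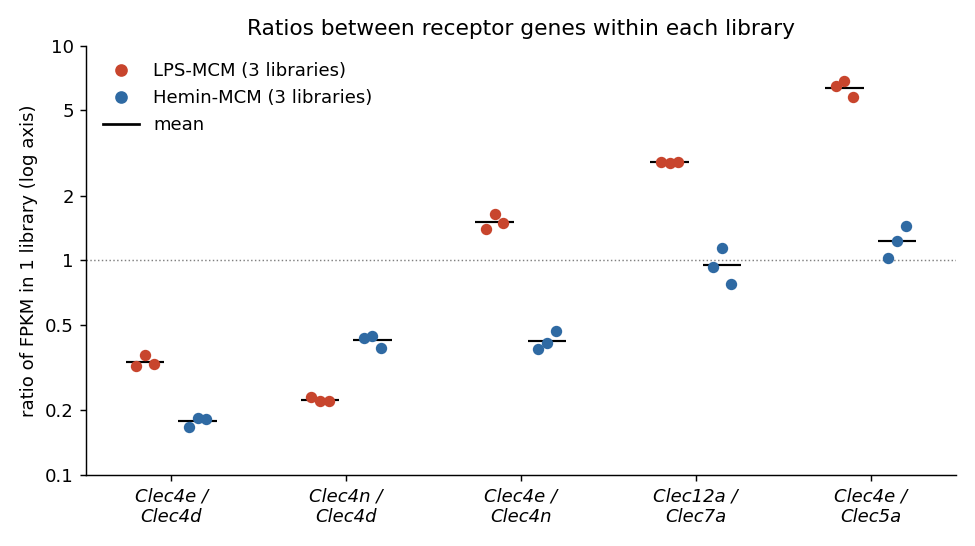
Ratios of the FPKM of receptor genes within each library (log axis, 1 point per library, bar at the group mean, dotted line at a ratio of 1). Clec4e against Clec4n lies at 1.401 to 1.64 with LPS-MCM but 0.385 to 0.467 with Hemin-MCM, and Clec12a against Clec7a at 2.85 to 2.88 and 0.777 to 1.14.

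Clec5a encodes MDL-1, which has no signal motif of its own and pairs with DAP12, the ITAM adaptor encoded by Tyrobp. Clec5a (gene 23845, chromosome 6, 40574898 to 40585805) was at 4.49, 4.72 and 5.06 FPKM in LPS-MCM and at 13.1, 11.4 and 10.7 FPKM in Hemin-MCM. The groups are far apart, and the Hemin-MCM mean (11.7 ± 1.26) was 2.47 times the LPS-MCM mean (4.76 ± 0.288). This was the largest difference among the 8 receptors, at -1.14 ± 0.08 (limma adjusted p = 8.58e-06) and -1.29 ± 0.10 in the model of recovered fragments. It was called in all 13 alternatives. Its partner Tyrobp was lower as well, at 74.5 ± 7.80 against 104.6 ± 3.45 FPKM (-0.49 ± 0.07, adjusted p = 0.000951).

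Clec7a encodes Dectin-1, the receptor for fungal beta-glucans, whose own tail carries the activating motif. In mouse brain it is also known as a gene of disease-associated microglia. Clec7a (gene 56644, chromosome 6, 129461591 to 129472785) was at 4.98, 6.06 and 5.04 FPKM in LPS-MCM and at 10.8, 9.54 and 11.6 FPKM in Hemin-MCM. The libraries did not overlap, with 382 to 466 fragments against 729 to 949. The level was 1.98 times as high in Hemin-MCM, and the log2 difference was -0.87 ± 0.09 (limma adjusted p = 8.57e-05), between -0.99 and -0.81 and called in all 13 alternatives.

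Among the 8 genes, Clec4a2 and Clec12a encode inhibitory receptors, and both were higher in LPS-MCM. Clec4a2 encodes DCIR, the dendritic cell immunoreceptor, and Clec12a encodes MICL, an inhibitory receptor for uric acid crystals, and both proteins carry an ITIM. Clec12a (gene 232413, chromosome 6, 129349783 to 129365303) was at 14.3, 17.3 and 14.5 FPKM in LPS-MCM and at 10.05, 10.9 and 9.002 FPKM in Hemin-MCM. The difference was 0.58 ± 0.09 (limma adjusted p = 0.001), with 1132 to 1374 fragments against 762 to 859. Clec4a2 (gene 26888, chromosome 6, 123122690 to 123143999) was at 8.83, 6.84 and 6.33 FPKM in LPS-MCM and at 4.35, 4.07 and 3.93 FPKM in Hemin-MCM. Its spread was wide in LPS-MCM, at 18.0% of the mean against 5.28% in Hemin-MCM, mostly through the first library, and the groups still did not overlap. The difference was 0.69 ± 0.10 (limma adjusted p = 0.000961). Both genes were called in all 13 alternatives.

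Clec4a3 encodes DCIR3, a close relative of DCIR. It was the least abundant member and the one that did not pass, at 1.29, 2.46 and 1.74 FPKM in LPS-MCM and 1.54, 1.59 and 2.11 FPKM in Hemin-MCM. The libraries overlap, and 61 to 117 fragments per library lie behind these values. The log2 difference was 0.03 ± 0.14 (limma adjusted p = 0.923, 95% interval -0.29 to 0.35), which does not show that the groups are alike. Clec4a1, Clec4a2, Clec4a3 and Clec4a4 are similar copies near each other on the chromosome (Clec4a3, gene 73149, at 122952515 to 122969878), with Clec4b1 between Clec4a4 and Clec4a2. The counting method is not given, so reads may have been divided between these copies and their values are uncertain.

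**Figure D3:**
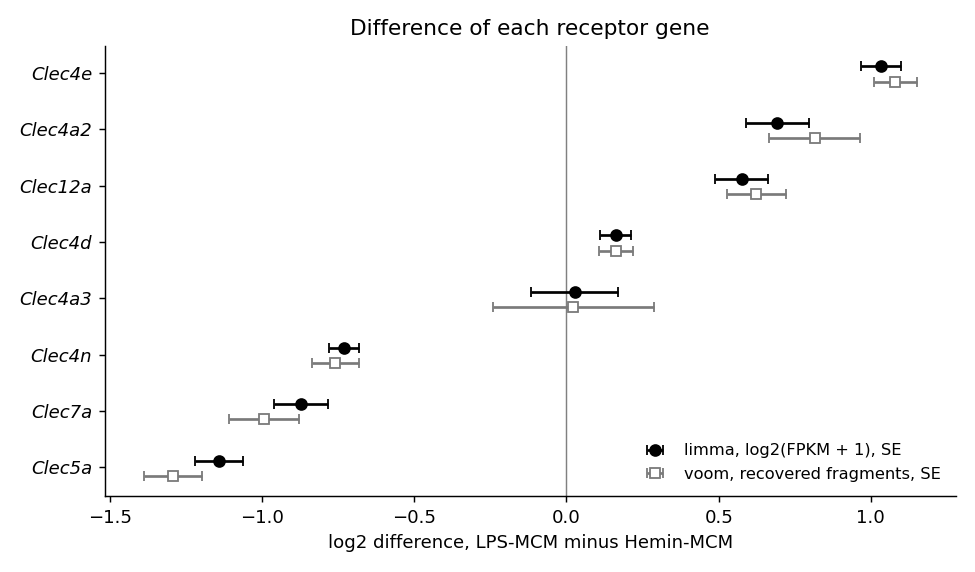
Log2 difference of each receptor gene, LPS-MCM minus Hemin-MCM, by limma on log2(FPKM + 1) (filled circles) and by voom on recovered fragments (open squares), with SE bars from 3 libraries a group. Both methods call 4 genes higher and 3 lower, and Clec4a3, at 0.03 and 0.02, is not called by either.

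In the order of their levels, Clec4d, Clec4e, Clec4n, Clec12a, Clec4a2, Clec7a, Clec5a and Clec4a3 followed each other from high to low in LPS-MCM. The libraries of each gene lay apart from those of the next, except for Clec7a and Clec5a. In Hemin-MCM the order was Clec4d, Clec4n, Clec4e, Clec5a, Clec7a, Clec12a, Clec4a2 and Clec4a3, where Clec5a, Clec7a and Clec12a were neighbors whose libraries overlapped. The ratio of Clec12a to Clec7a was 2.85 to 2.88 with LPS-MCM against 0.777 to 1.14 with Hemin-MCM. It describes 1 pair, whose genes lay apart in opposite directions, and gives no balance of inhibitory to activating receptors. The activating Clec4e was also higher in LPS-MCM, by more (1.03 ± 0.07) than the inhibitory Clec12a (0.58 ± 0.09). The summed level of the 8 receptors was 170.3 to 179.3 FPKM and 161.7 to 170.7 FPKM, ranges that overlap although 7 of the genes differ.

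Most of these genes stand in a pair of groups on chromosome 6. In the first, from Clec4a1 to Clec4e (122921848 to 123289871, 368 kb), the tested genes in their order along the chromosome were Clec4a1, Clec4a3, Clec4a2, Clec4n, Clec4d and Clec4e. Clec4n was lower in LPS-MCM although Clec4a2 on one side and Clec4d and Clec4e on the other were higher. Clec4a1, which is not among the 8, was higher too, at 35.9 ± 1.66 against 21.8 ± 0.686 FPKM (0.69 ± 0.05, limma adjusted p = 1.52e-05), while Clec4b1 was at 0 and Clec4a4 at 0.0343 and 0.00801 FPKM. In the second group (129349783 to 129472785, 123 kb) the outer genes Clec12a and Clec7a went opposite ways. The genes between them, Clec1a, Clec1b, Clec9a and Clec12b, were at or near 0, with no mean above 0.00876 FPKM.

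**Figure D4:**
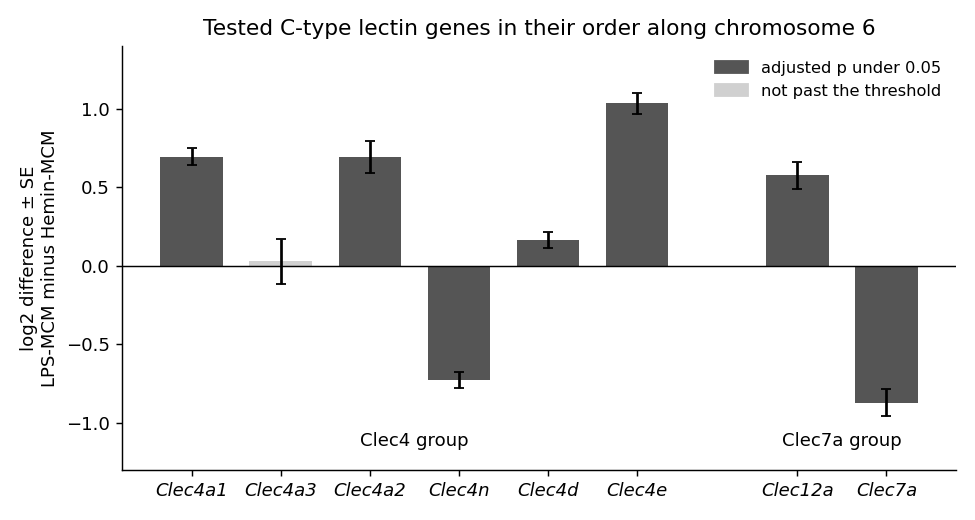
Log2 difference of log2(FPKM + 1) with its SE for the tested C-type lectin genes, in their order along chromosome 6 but not to scale. In the Clec4 group the bar of Clec4n (-0.73) points down between bars that point up, and in the second group Clec12a (0.58) and Clec7a (-0.87) point opposite ways.

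The signal genes of the activating receptors also went both ways. Over all genes tested 6.72% were higher in LPS-MCM and 13.8% lower (median log2 difference -0.04). Of 17 listed transducers 15 were tested, 5 were higher in LPS-MCM, 3 were lower and 7 did not pass (median log2 difference 0.17). Voom on recovered fragments gave 9 higher and 3 lower, adding Src, Vav1, Pik3r1 and Pik3cg, whose limma adjusted p lay between 0.0509 and 0.0731. Syk, the kinase that binds the activating motif, was at 10.03 ± 0.2003 FPKM against 5.33 ± 0.667 FPKM (0.81 ± 0.08, limma adjusted p = 8.13e-05). Malt1, the protease that works with CARD9 and BCL10, was at 5.84 ± 0.194 and 2.40 ± 0.271 FPKM (1.01 ± 0.08, adjusted p = 1.42e-05). The Src-family kinase gene Lyn (0.28 ± 0.05) and Prkcd, whose kinase phosphorylates CARD9 (0.35 ± 0.08), were higher as well.

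Card9 itself was lower, at 3.03 ± 0.190 against 4.60 ± 0.576 FPKM (-0.47 ± 0.09, limma adjusted p = 0.00364). Bcl10, its partner, did not pass (0.14 ± 0.08, 95% interval -0.03 to 0.31). The phospholipase gene Plcg2 was lower (-0.46 ± 0.06) as well. The genes of both adaptor chains moved apart: Fcer1g, the chain of Mincle, MCL and Dectin-2, was at 228.5 ± 5.66 and 197.3 ± 5.27 FPKM (0.21 ± 0.05, adjusted p = 0.0105, and 0.0503 without the third Hemin-MCM library). With Tyrobp lower, the ratio of Fcer1g to Tyrobp was 2.85 to 3.52 with LPS-MCM against 1.82 to 1.95 with Hemin-MCM. Both adaptor genes are also in the marker list of microglia and macrophages.

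Of 4 phosphatase genes that act behind inhibitory receptors, Inpp5d, which encodes the lipid phosphatase SHIP-1 of blood cells, was lower (5.50 ± 0.683 against 8.97 ± 0.134 FPKM, -0.62 ± 0.08, limma adjusted p = 0.000432). Ptpn6 (0.04 ± 0.07), Ptpn11 (0.06 ± 0.05) and Inppl1 (0.02 ± 0.05) did not pass. The tyrosine phosphatase genes Ptpn6 and Ptpn11, whose products bind the ITIM, were at 26.3 and 56.6 FPKM with LPS-MCM, against 25.4 and 54.3 FPKM.

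**Figure D5:**
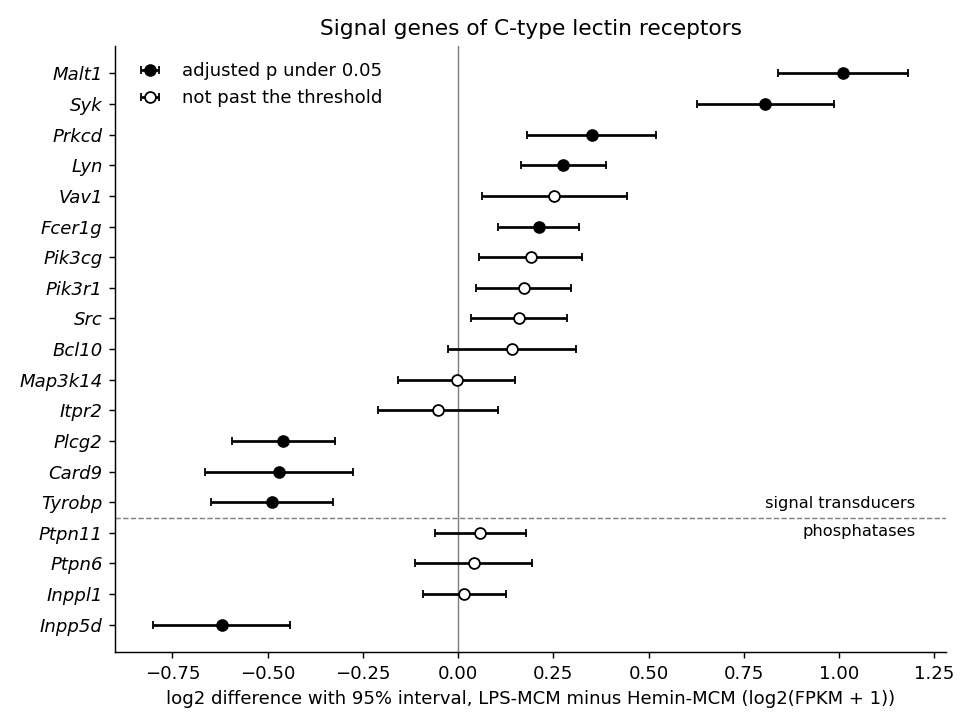
Log2 difference of log2(FPKM + 1), LPS-MCM minus Hemin-MCM, with its 95% interval from limma, for 15 tested transducers and 4 phosphatases of C-type lectin receptor signaling. Filled circles passed the adjusted p threshold. Malt1 (1.01) and Syk (0.81) lie farthest to the right, and Tyrobp (-0.49), Card9 (-0.47) and Inpp5d (-0.62) to the left.

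Downstream, 20 of 27 transcription factor and output genes, listed with earlier results of these data known, were tested. Of these 12 were higher, 3 were lower and 5 did not pass (median 0.23). Over all genes tested 6.72% were higher and 13.8% lower (median -0.04). The rule for naming gives Cxcl2 (3.10 ± 0.05), Il6 (4.12 ± 0.07), Ptgs2 (2.81 ± 0.07), Il1b (2.84 ± 0.10) and Tnf (2.03 ± 0.08), genes that many other signals of inflammation also raise. The inflammasome sensor gene Nlrp3 was higher (16.95 ± 0.236 against 7.38 ± 0.347 FPKM, a ratio of 2.30), whereas Pycard, which encodes the inflammasome adaptor ASC, was lower (1.33 ± 0.204 against 2.85 ± 0.384 FPKM, -0.72 ± 0.10). The NF-kB subunit genes Rel (0.51 ± 0.07), Nfkb2 (0.31 ± 0.05), Nfkb1 (0.24 ± 0.05) and Rela (0.20 ± 0.05, lost without the third Hemin-MCM library at an adjusted p of 0.0906) were higher. So were Ccl22 (1.96 ± 0.549 against 0.338 ± 0.0554 FPKM, 1.13 ± 0.13) and Casp1 (0.22 ± 0.06). Ccl22 reached the filter only through LPS-MCM, its difference ran from 1.102 to 2.48 over 11 alternatives, and it was below the filter without the first or without the second LPS-MCM library. The call of Casp1 was lost without the first LPS-MCM (adjusted p = 0.0718) or the third Hemin-MCM library (0.105). The lower genes beside Pycard were Irf5 (-0.70 ± 0.07) and Nfatc2 (0.800 ± 0.0929 against 1.47 ± 0.0838 FPKM, -0.46 ± 0.08). Nfatc2 reached the filter only through Hemin-MCM, and its difference ran from -0.88 to -0.33 over the alternatives. Il12b and Il10 were below the filter, with means of 1.36 ± 0.367 and 0.909 ± 0.166 FPKM with LPS-MCM against 0.154 ± 0.170 and 0.0700 ± 0.0620 FPKM with Hemin-MCM.

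Among 36 other genes with C-type lectin domains, 30 had an entry and 7 passed the filter. Of these 7, 3 were higher, 2 lower and 2 not called, beside 6.72% higher and 13.8% lower over all genes tested. The higher genes were Clec4a1, Clec2d (22.9 ± 1.85 against 16.1 ± 0.834 FPKM), the ligand of an inhibitory receptor of natural killer cells, and Cd302 (53.8 ± 3.36 against 40.7 ± 0.988 FPKM). The lower genes were Cd72, which encodes an inhibitory receptor known from B cells (36.2 ± 2.08 against 64.6 ± 2.51 FPKM), and the scavenger receptor gene Colec12 (4.80 ± 0.241 against 11.2 ± 0.928 FPKM). The dendritic cell receptor gene Ly75 was tested and did not pass (1.28 ± 0.0900 against 0.987 ± 0.109 FPKM, 0.20 ± 0.08). Of the untested genes, Clec9a, Clec10a and Mgl2 were at 0 in every library, and the mannose receptor gene Mrc1 was at 0.104 ± 0.0425 and 0.586 ± 0.262 FPKM.

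For other receptors of the same ligands or partners, 11 of 13 genes were tested. Of these 5 were higher, 1 was lower and 5 did not pass, beside 6.72% higher and 13.8% lower over all genes tested. Cd14 (196.0 ± 9.01 against 105.9 ± 6.76 FPKM, 0.88 ± 0.06), Cd36 (0.70 ± 0.11), Nod1 (0.43 ± 0.07), Tlr2 (0.20 ± 0.05) and Msr1 (0.20 ± 0.05) were higher. Tlr2 lost its call without the third Hemin-MCM library (limma adjusted p = 0.0999). Msr1 lost it without the first (0.0789) or second LPS-MCM library (0.0765) and without the second (0.0977) or the third Hemin-MCM library (0.101). Lgals3, which encodes galectin-3, a partner of Dectin-1, was lower (41.2 ± 4.25 against 79.0 ± 5.50 FPKM, -0.93 ± 0.08).

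Markers of other cells that carry these receptors were measured beside them. Of 9 neutrophil markers 8 had an entry, with a summed level of 12.4 to 16.2 FPKM with LPS-MCM against 5.63 to 8.96 FPKM with Hemin-MCM. Of these 3 were tested: Csf3r (0.77 ± 0.08) and S100a8 (1.33 ± 0.24) were higher, and Camp did not pass (0.50 ± 0.17). S100a9, the partner of S100a8, was below the filter at 0.604 ± 0.477 against 0.734 ± 0.203 FPKM, Mpo was at 0 in all 6 libraries, and Ly6g was above 0 in 1 LPS-MCM library alone (0.0300 FPKM). Of the markers of border and monocyte-derived macrophages 1 of 8 passed the filter, Ms4a7, and it was lower (-0.64 ± 0.09), with sums of 6.84 to 9.29 and 13.1 to 14.0 FPKM. The 5 dendritic cell markers with an entry summed to 1.14 to 1.27 and 1.13 to 1.30 FPKM, with Xcr1 at 0. Among the microglia and macrophage markers, Cx3cr1 (-2.34 ± 0.06) and Trem2 (-1.93 ± 0.13) were lower, Fcer1g was higher, and Ptprc (-0.09 ± 0.06) and Spi1, which encodes PU.1 (0.08 ± 0.07), did not pass. The receptors lower beside them were Clec5a, Clec7a and Clec4n. Those higher were Clec4e, Clec12a, Clec4a2, whose reads may have been divided with its similar copies, and, less firmly, Clec4d. The part of these cells in the receptor differences was not tested.

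The genes most like Clec4e over the 6 libraries, by Pearson's correlation of log2(FPKM + 1), were H2-Q4 (r = 0.999), Serpinb2 (0.998) and Hap1 (0.997). Those most like Clec5a were Pclaf (0.998), Omd (0.996) and Slf1 (0.995). With 2 groups of 3 libraries such a correlation mostly follows the difference between the groups, and it is given as a description.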

How the data were processed

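Astrocyte libraries of polyadenylated RNA (3 per group, stranded kit per the labels' protocols) were compared. The authors deposited gene-level FPKM in 1 table. The submitters' processing notes name mm10 and DESeq, and no aligner, counter or annotation is stated there. Another 3 value columns matched no sample and were not used. On log2(FPKM + 1), which understates changes of low genes, limma 3.58.1 in R 4.3.3 tested the 11688 genes whose mean over 6 libraries reached 1 FPKM (1 mean per group, variance trend, two-sided, Benjamini-Hochberg, threshold 0.05).

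For all 16482 genes above 0 in at least 2 libraries, the FPKM were whole multiples of 1 fragment's worth, to within 1e-06 of a fragment. These recovered fragments (a factor common to a gene's libraries can be lost) were fitted with voom in limma, an alternative added after seeing the data. Both fits were tested on simulated counts with equal depth and the same dispersion for every gene. The simulation does not check the calls made here.

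The members and lists were chosen with earlier results of these data known. Named by rule are the 8 members, Fcer1g, Tyrobp, Syk and Card9, up to 5 genes per list by smallest adjusted p, and 3 genes most like each of the 2 members with the largest differences. Other genes were chosen with their values seen. The list of transducers was shortened by 1 gene, not reported here. Coordinates and promoters are RefSeq's (GRCm38.p6, equal to mm10).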

Additional observations from a re-analysis of the deposited data

How the results depend on the processing

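All 8 receptors kept the side of 0 in every alternative except Clec4a3, whose difference was -0.13 without the second LPS-MCM library, -0.026 without the first and -0.013 without the second Hemin-MCM library, never past the threshold (-0.13 to 0.17 over the fits that left out 1 library). Ptpn6 ran from -0.026, without the second LPS-MCM library, to 0.11. The count of higher receptors was 3 or 4, through Clec4d, and that of lower receptors 3, in all 13 alternatives. Over all genes 786 were higher and 1614 lower. Leaving out 1 library gave 581 to 763 higher and 1058 to 1652 lower, the lowest without the third Hemin-MCM library. Deviations from the group means had correlations of 0.08, 0.11 and -0.11 between same-numbered libraries, and of -0.21 to 0.13 between differently numbered ones. They give no sign of pairing by number, but with 3 libraries a group they cannot exclude it. With the replicate block 752 genes were higher and 1578 lower, 3 receptors were higher and 3 lower, and Clec4d had an adjusted p of 0.0687. Low levels are limited by depth: Clec4a3 rests on 61 to 117 fragments a library. The cause of these changes was not tested.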
